A study of Mus musculus with 6 samples.

Results

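The genes described here are 42 mouse genes for the enzymes that build nucleotides: the pentose phosphate pathway, the synthetases of phosphoribosyl pyrophosphate (PRPP), de novo purine and pyrimidine synthesis, the supply of deoxynucleotides, serine synthesis and the folate-bound transfer of carbon units. They were taken by name and role, with no measured value in the rule, and were found by versioned Ensembl gene identifier among the 55450 genes listed in each of 6 count files. The files come from bulk RNA-seq of primary hepatocytes of male C57BL/6 mice (C57BL/6J in the study's methods), isolated by collagenase perfusion of the liver, with 3 libraries of mice whose liver was undamaged (0 h) and 3 of mice at 48 h past partial hepatectomy (PHx), the surgical removal of part of the liver that sets the remaining hepatocytes to divide. All mice were on a normal diet and, by the labels, 10 to 12 weeks old. The study's methods give a somewhat younger age at PHx. The labels name no transgene, deletion or drug in either group. The 0 h mice had no sham operation, so surgery and regeneration cannot be told apart. The study describes the 3 libraries of a time point as biological replicates, made from separate hepatocyte preparations. The comparison asks which of these enzymes differ in mRNA level between resting and regenerating hepatocytes.

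A dividing cell has to copy its DNA and to make large amounts of ribosomal RNA, and both need nucleotides. Glucose 6-phosphate enters the pentose phosphate pathway and yields NADPH and ribose 5-phosphate, which becomes PRPP, the sugar donor of every purine and pyrimidine nucleotide. Purines are assembled on that sugar, with formyl groups carried by folate, and pyrimidine rings are closed first and then joined to it. Ribonucleotide reductase turns ribonucleotides into deoxynucleotides, and thymidylate synthase uses a folate carbon unit, which comes largely from serine, to make the thymine nucleotide. The liver is a main organ of both nucleotide synthesis and breakdown.

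The libraries held 31419443 to 36346220 reads assigned to genes, and the correlation of log2 CPM was 0.984 to 0.989 within a time point and 0.918 to 0.937 between them. CPM, the unit of all levels given here, is the share of a library's reads that fall on a gene, scaled up to a common total after TMM scaling, which assumes that most genes do not change. Albumin and the other 11 hepatocyte markers summed to 111648 to 129292 CPM at 0 h and to 79238 to 104334 CPM at 48 h. In the test described below, 2 of the 12 were higher (16.7%, against 21.4% of all genes tested). Lower were 3 (25.0% against 19.3%), and 7 were not called. Alb alone went from 63605 ± 8923 to 35100.2 ± 4032 CPM (SD, n = 3). Markers of other liver cells were present in both groups. Sinusoidal endothelial markers summed to 246 to 386 CPM at 0 h and 181 to 199 CPM at 48 h, with 11 of 12 lower in the test. Kupffer cell and macrophage markers summed to 90.2 to 135 and 124 to 154 CPM, stellate cell markers to 69.5 to 116 and 63.4 to 76.0 CPM, and cholangiocyte markers to 35.1 to 63.2 and 46.9 to 58.7 CPM, each with overlap between the groups. Single markers of these cells changed. Of the 12 Kupffer cell and macrophage markers, 3 were higher (25.0%) and 1 lower (8.33%), with Marco 9.13-fold higher (edgeR adjusted p = 1.01e-06). Of 9 tested stellate cell markers, 1 was higher (11.1%), Col1a1 (4.92-fold), and 1 lower (11.1%). Of 3 tested cholangiocyte markers, 1 was higher (33.3%), Spp1 (2.86-fold). Marco, Col1a1 and Spp1 were named after their values were seen. Lymphocyte markers summed to 2.94 to 4.29 and 1.57 to 2.32 CPM with Cd3d and Ncr1 at 0 counts, neutrophil markers to 0.0904 to 0.409 and 0.654 to 1.06 CPM with Mpo and Ltf at 0, and erythroid markers to 56.0 to 86.7 and 18.8 to 40.5 CPM with Hbb-bt at 0. The part of these cells in the results below was not tested. In bulk RNA, fewer cells of a type and less RNA per cell cannot be told apart, nor can a change in a few cells from a smaller change in all.

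Most genes of nucleotide synthesis were higher in the regenerating hepatocytes. All 42 genes passed the filter on low counts, and with edgeR's quasi-likelihood test and Benjamini-Hochberg adjustment over all 17037 genes tested, 26 of the 42 were higher at 48 h, 4 were lower and 12 did not pass the threshold of 0.05. Of all genes tested, 21.4% were higher and 19.3% lower, so that 52.5% of all calls were higher; scaling by library size alone made that share 71.6%. The count of lower genes among the 42 was 0 with that scaling and 2 without 0 h replicate 1, 0 h replicate 3, 48 h replicate 1 or 48 h replicate 3. A rise of at least 2-fold was called for 13 of the 42 genes, against 9.69% of all genes tested, and a fall of that size for 0 of them, against 7.94%. The 3 libraries of 48 h lay above the 3 of 0 h for 28 of the 42 genes, and for 27.8% of all genes tested. The median log2 fold change was 0.60 over the 42 genes and -0.00 over all genes tested, and the genes ranged from -0.51 for G6pdx to 5.29 for Rrm2.

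**Figure D1:**
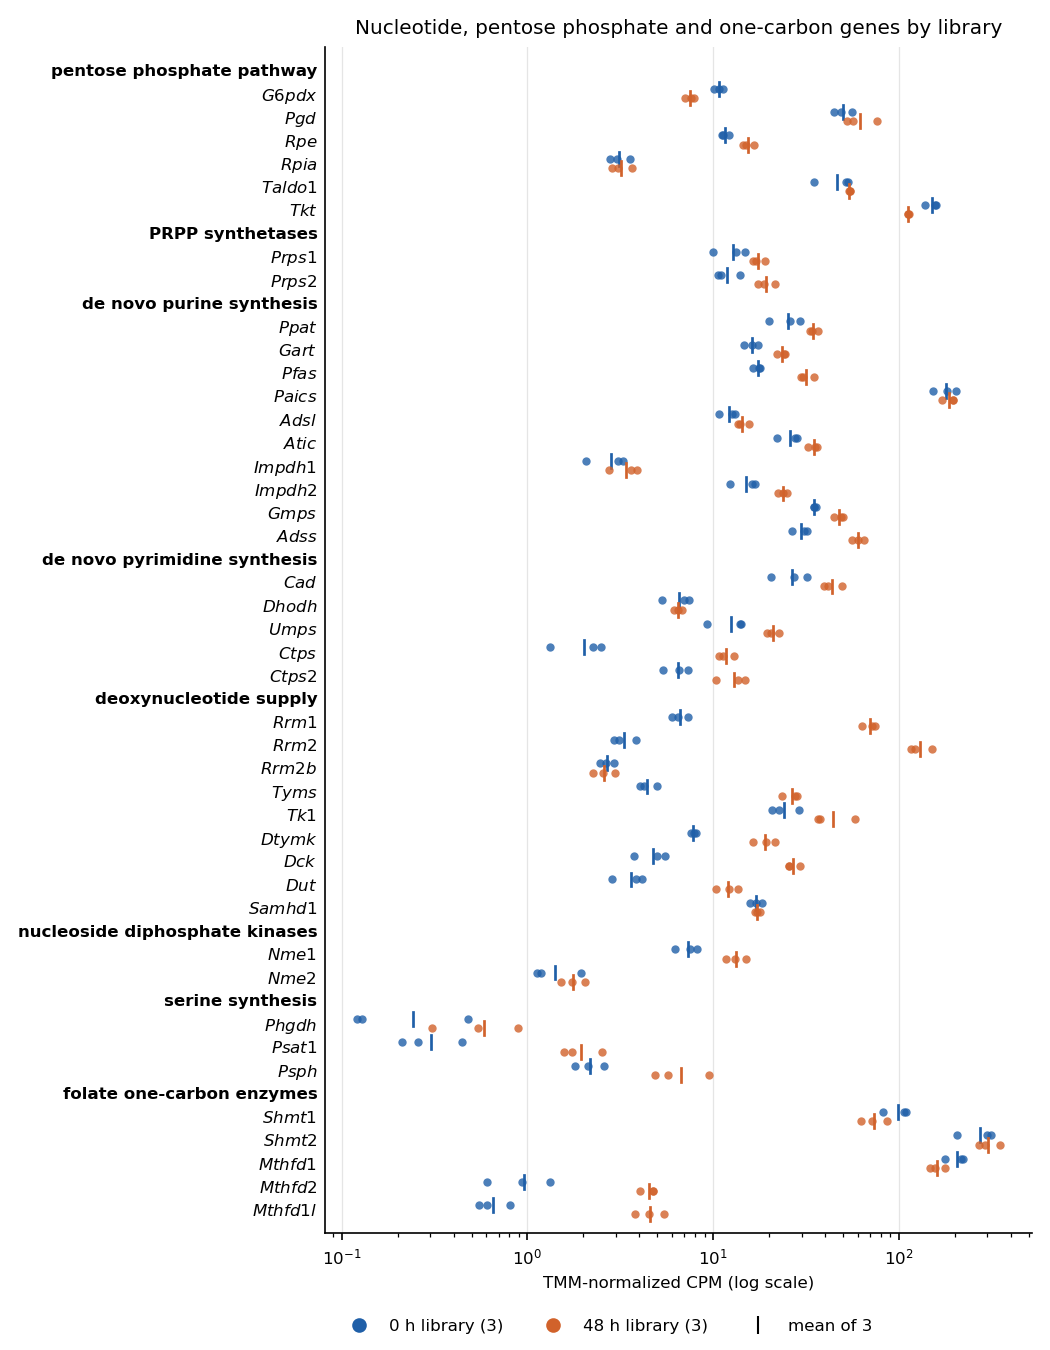
Level of each of the 42 genes in the 3 libraries of 0 h and the 3 of 48 h, in CPM on a log axis, ordered by role, with a point per library and a vertical line at the mean of 3. Rrm2 moved from 2.93 to 3.86 CPM at 0 h to 116 to 151 CPM at 48 h, while abundant enzymes such as Shmt2 and Paics kept overlapping levels.

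**Figure D2:**
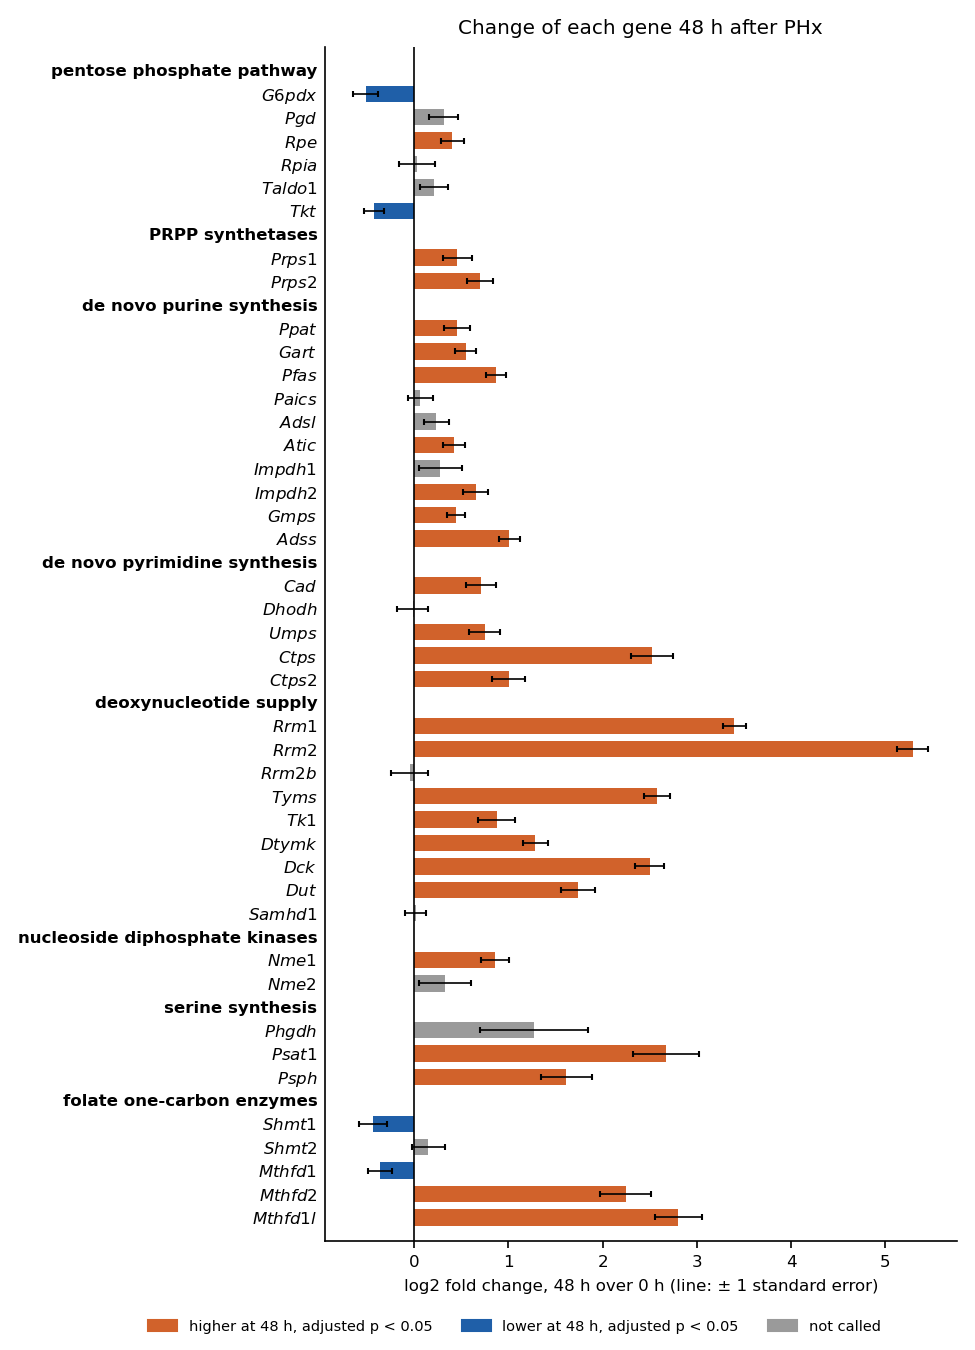
The log2 fold change of each gene, 48 h over 0 h, from edgeR, as a bar with its standard error as a line, coloured by whether the adjusted p was under 0.05. The longest bars are Rrm2 (5.29) and Rrm1 (3.40), and 4 genes, G6pdx, Tkt, Shmt1 and Mthfd1, were called lower.

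The genes that supply deoxynucleotides, the building blocks of DNA, held the 2 largest changes of the 42. Of 9 genes, 7 were higher and 0 lower at 48 h, 6 of the 7 by at least 2-fold, with a median log2 fold change of 1.74. Their CPM summed to 67.7 to 82.1 in the 0 h libraries and to 320 to 393 in the 48 h libraries. Ribonucleotide reductase, which makes all deoxynucleotides from ribonucleotides, has a large subunit, Rrm1, and a small subunit that is either Rrm2, the form of dividing cells, or Rrm2b, a p53-induced form used outside S phase. Rrm2 (ENSMUSG00000020649.11, GRCm38 chromosome 12, 24708241 to 24714146, plus strand) stood at 2.93, 3.13 and 3.86 CPM at 0 h and at 122, 151 and 116 CPM at 48 h. Every library of 48 h was far above every library of 0 h, and the fitted change was 39.1-fold (log2 fold change 5.29 ± 0.165 (SE), edgeR adjusted p = 1.96e-08, n = 3 per group). Per kilobase of exon, Rrm2 rose from 1.19 ± 0.176 to 46.8 ± 6.81 CPM (SD, n = 3). Rrm1 (ENSMUSG00000030978.10, chromosome 7, 102441695 to 102469771, plus strand) stood at 6.47, 6.03 and 7.29 CPM and then at 71.5, 74.4 and 63.1 CPM. It was 10.5-fold higher, again without overlap (log2 fold change 3.40 ± 0.124, edgeR adjusted p = 3.63e-08). Rrm2b, the other small subunit, was at 2.93, 2.45 and 2.65 CPM at 0 h and 2.56, 2.27 and 2.94 CPM at 48 h. Its groups overlapped and the change was not called (log2 fold change -0.05 ± 0.199, adjusted p = 0.866). The antisense gene Gm49085 covers 8.04% of the exon bases of Rrm2b and itself had a log2 fold change of 1.12 (edgeR adjusted p = 0.0193).

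The other 5 genes called in this group, Tyms, Dck, Dut, Dtymk and Tk1, were all higher. Tyms, thymidylate synthase, stood at 4.05, 4.97 and 4.25 CPM at 0 h and 23.5, 27.6 and 28.2 CPM at 48 h, a log2 fold change of 2.58 ± 0.138 without overlap (edgeR adjusted p = 3.46e-07). Dck, deoxycytidine kinase of the salvage route, rose from 4.74 ± 0.911 to 26.8 ± 2.15 CPM (SD, n = 3), with an adjusted p of 1.03e-06 in edgeR. Dut, which removes dUTP and so keeps uracil out of DNA, rose by 1.74 ± 0.181 on the log2 scale (adjusted p = 4.21e-05), and Dtymk, the thymidylate kinase, by 1.28 ± 0.134 (adjusted p = 4.2e-05). Tk1, the cytosolic thymidine kinase of the salvage route, already stood at 22.7, 20.7 and 29.0 CPM at 0 h and reached 36.7, 58.3 and 37.6 CPM at 48 h. The rise of Tk1, 0.87 ± 0.191 on the log2 scale (adjusted p = 0.00447), was the smallest of the 7 called in this group, and 48 h replicate 2 lay well above the other two. Samhd1, which breaks deoxynucleotides down, was at 17.0 ± 1.25 and 17.3 ± 0.539 CPM and was not called (adjusted p = 0.916).

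The sequence before the start of 4 of these genes is shown because the group held the 2 largest changes. The 4 were not picked by size of change alone: Dck and Dut rose more than Dtymk and are not shown. The stretches come from the RefSeq promoter windows of GRCm38.p6, which run from 250 bases before to 50 after each start, and the start is that of RefSeq. The stretches of Rrm1, Tyms and Dtymk end at the base before the start, and that of Rrm2 ends 14 bases before it. Capitals mark matches on either strand to the CCAAT box (CCAAT, or ATTGG on the other strand), the E-box CACGTG and the antioxidant response element TGACNNNGC.
Rrm2 (chr12:24708134-24708240, plus strand): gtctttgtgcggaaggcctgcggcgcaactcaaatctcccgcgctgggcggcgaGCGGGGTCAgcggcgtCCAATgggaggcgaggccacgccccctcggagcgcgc
Rrm1 (chr7:102441575-102441694, plus strand): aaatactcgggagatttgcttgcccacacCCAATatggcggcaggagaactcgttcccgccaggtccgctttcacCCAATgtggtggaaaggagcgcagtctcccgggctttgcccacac
Tyms (chr5:30073626-30073745, minus strand): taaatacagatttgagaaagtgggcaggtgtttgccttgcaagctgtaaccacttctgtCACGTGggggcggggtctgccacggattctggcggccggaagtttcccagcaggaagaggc
Dtymk (chr1:93801935-93802054, minus strand): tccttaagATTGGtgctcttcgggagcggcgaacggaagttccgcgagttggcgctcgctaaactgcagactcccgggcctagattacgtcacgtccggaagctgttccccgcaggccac

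The CCAAT letters began 50 bases before the start in Rrm2, 91 and 45 bases before it in Rrm1 and 112 in Dtymk. The E-box letters began 61 bases before the start in Tyms. Dtymk also held E-box letters 148 bases before its start, outside the stretch printed. A window was found for 39 of the 42 genes, not for Pfas, Dhodh and Rrm2b. CCAAT letters were in 18 of the 39 (46.2%), against 41.1% of all 27025 genes with a window. Of the 8 deoxynucleotide genes with a window, 3 held them, Rrm1, Rrm2 and Dtymk, all of which are shown above. E-box letters were in 6 (15.4% against 8.09%), the antioxidant response element in 9 (23.1% against 14.0%), the C/EBP-ATF element TGATGNAA in 1 (2.56% against 4.51%) and the E2F letters TTTCCCGC, TTTCGCGC, TTTGCCGC or TTTGGCGC in 2, Prps2 and Ppat (5.13% against 2.61%). Of the 8 deoxynucleotide genes with a window, 0 held the E2F letters, which says only that these letters are not in this window. Of 47 matches in these windows, 0 overlapped a match of another motif, and a match is a description, not a binding site.

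In pyrimidine synthesis, 4 of 5 genes were higher and 0 lower, with a median log2 fold change of 0.75. CTP synthase, which aminates UTP to CTP, is encoded by Ctps and Ctps2, and both were called higher by at least 2-fold. Ctps (ENSMUSG00000028633.7, chromosome 4, 120539868 to 120570276, minus strand) was at 2.49, 1.32 and 2.26 CPM at 0 h and 13.0, 10.7 and 11.3 CPM at 48 h. The groups did not overlap, and the rise was 5.75-fold (log2 fold change 2.52 ± 0.22, edgeR adjusted p = 1.24e-05). Ctps2 moved from 5.38, 6.55 and 7.35 CPM to 14.8, 13.7 and 10.3 CPM, a 2.01-fold rise with an adjusted p of 0.00119 in edgeR; its log2 fold change was 0.92 with upper quartile scaling, which is under 2-fold. Cad, the multifunctional enzyme that starts the route, rose from 26.6 ± 5.83 to 43.4 ± 5.24 CPM (SD, n = 3; edgeR adjusted p = 0.00537), and Umps, which finishes UMP, rose by 0.75 ± 0.165 on the log2 scale (adjusted p = 0.00461). Dhodh, the mitochondrial step between them, was at 6.57 ± 1.12 and 6.49 ± 0.325 CPM and was not called (adjusted p = 0.947).

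In purine synthesis the changes were smaller: 7 of 10 genes were higher and 0 lower, with a median log2 fold change of 0.45, and 1 was called higher by at least 2-fold. That gene was Adss, which commits IMP to AMP. Adss stood at 30.8, 26.7 and 32.2 CPM at 0 h and 64.8, 60.0 and 55.9 CPM at 48 h, 2.01-fold higher without overlap (log2 fold change 1.01 ± 0.111, edgeR adjusted p = 5.93e-05); with upper quartile scaling the log2 fold change was 0.93, under 2-fold. Pfas, an amidotransferase in the middle of the route, rose from 17.6, 16.4 and 17.9 CPM to 34.8, 29.8 and 30.4 CPM (log2 fold change 0.87 ± 0.108, adjusted p = 0.000139). On the branch to GMP, Impdh2 was at 16.8, 12.4 and 16.1 CPM and then at 25.0, 22.3 and 23.9 CPM. It rose by 0.65 ± 0.133 on the log2 scale (edgeR adjusted p = 0.00299), and Gmps, the next enzyme, by 0.45 ± 0.0954 (adjusted p = 0.00396). Impdh1, the other IMP dehydrogenase, was at 2.08, 3.26 and 3.07 CPM and then at 3.60, 2.74 and 3.89 CPM, with overlapping groups and no call (adjusted p = 0.365).

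Ppat, the amidotransferase that commits PRPP to purines, rose by 0.46 ± 0.139 on the log2 scale (edgeR adjusted p = 0.0238), Gart, a trifunctional enzyme, by 0.55 ± 0.113 (adjusted p = 0.00318) and Atic, which closes the ring to IMP, by 0.42 ± 0.119 (adjusted p = 0.0169). Ppat was not called without 0 h replicate 1 (adjusted p = 0.0777) or 48 h replicate 3 (0.0672), nor with upper quartile scaling (0.0571), and Atic was not called without 48 h replicate 2 (0.06). Paics, which adds carbon dioxide and aspartate to the growing ring, had the highest level per kilobase of the group at both times, 57.0 and 59.7 CPM per kilobase. At 179 ± 25.9 and 187 ± 14.1 CPM (SD, n = 3) it was not called (adjusted p = 0.728). Ppat and Paics lie on opposite strands and share 6.15% and 8.67% of their exon bases, and Gm15964 covers 19.7% of those of Gart on the opposite strand. Adsl, which acts both in the ring pathway and after Adss, was not called either (log2 fold change 0.24 ± 0.129, adjusted p = 0.172).

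Upstream of both routes, the synthetases of PRPP rose. Prps2 went from 11.0, 10.6 and 13.9 CPM to 18.8, 21.5 and 17.5 CPM without overlap (log2 fold change 0.70 ± 0.141, edgeR adjusted p = 0.00277). Prps1 went from 13.3, 10.0 and 14.9 CPM to 17.1, 19.1 and 16.4 CPM (log2 fold change 0.46 ± 0.153, adjusted p = 0.0351). The groups of Prps1 did not overlap, but its call was lost without 0 h replicate 1 (edgeR adjusted p = 0.0682), 0 h replicate 2 (0.0748), 48 h replicate 1 (0.062) or 48 h replicate 2 (0.12), and with upper quartile scaling (0.053).

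In the pentose phosphate pathway, 1 of 6 genes was higher (16.7%, against 21.4% of all genes tested) and 2 were lower (33.3% against 19.3%). With so few genes, these counts do not set the pathway apart from all genes. The median log2 fold change was 0.12, and levels summed to 243 to 294 CPM at 0 h and 246 to 268 CPM at 48 h. G6pdx, glucose 6-phosphate dehydrogenase, which sets the entry of glucose into the pathway, was at 10.1, 10.8 and 11.3 CPM at 0 h and 7.91, 7.03 and 7.60 CPM at 48 h. All libraries of 48 h were below those of 0 h (log2 fold change -0.51 ± 0.13, edgeR adjusted p = 0.00959). Tkt, transketolase of the non-oxidative branch, was at 157, 138 and 159 CPM and then at 112, 112 and 114 CPM, also without overlap (log2 fold change -0.43 ± 0.108, adjusted p = 0.00979). Scaling by library size alone, which moved the median of all genes up by 0.20 on the log2 scale, ended both calls, with adjusted p = 0.0763 for G6pdx and 0.134 for Tkt in edgeR, and called Pgd (0.0095) and Taldo1 (0.0371) higher, so that 3 of the 6 were higher and 0 lower. Rpe, the ribulose phosphate epimerase of the same branch, was called in the other direction.

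Rpe stood at 11.2, 11.4 and 12.2 CPM and then at 14.4, 16.5 and 15.1 CPM (log2 fold change 0.41 ± 0.118, edgeR adjusted p = 0.0189). It was not called without 0 h replicate 1 (adjusted p = 0.0634) or 48 h replicate 2 (0.0883). On the opposite strand, Kansl1l shares 17.9% of its exon bases, and Ikbkg 13.6% of those of G6pdx; whether reads were counted by strand is not given in the sources used here. Pgd, the second dehydrogenase of the oxidative branch (log2 fold change 0.31 ± 0.149, adjusted p = 0.123), Taldo1, transaldolase (0.21 ± 0.149, adjusted p = 0.279), and Rpia, the ribose phosphate isomerase (0.03 ± 0.194, adjusted p = 0.913), were not called. Per kilobase, Taldo1 and Tkt were the most abundant of the pathway at both times, with 21.5 and 20.6 CPM per kilobase at 0 h and 25.0 and 15.3 at 48 h.

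Nucleoside diphosphate kinases pass phosphate between the finished nucleotides. Nme1 was at 8.14, 6.26 and 7.54 CPM at 0 h and 15.0, 13.1 and 11.7 CPM at 48 h and rose by 0.86 ± 0.152 on the log2 scale (edgeR adjusted p = 0.00127). Nme2 was at 1.12, 1.94 and 1.18 CPM and then at 1.52, 2.04 and 1.74 CPM, with overlap and no call (adjusted p = 0.374). The annotated gene Gm20390 spans both on the same strand and shares 48.9% of the exon bases of Nme2 and 12.5% of those of Nme1, and its own count was 0 in all libraries. How reads on shared bases were counted is not given in the sources used here, so both levels are uncertain.

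The serine route was expressed at low levels in hepatocytes at 0 h, and 2 of its 3 genes rose. Psat1, the aminotransferase, had 13, 8 and 7 counts at 0 h and 85, 56 and 61 counts at 48 h, or 0.443, 0.258 and 0.211 CPM against 2.53, 1.57 and 1.74 CPM. The fitted rise was 6.39-fold, without overlap (log2 fold change 2.68 ± 0.35, edgeR adjusted p = 0.000187). Psph, the phosphatase that releases serine, went from 2.11, 1.81 and 2.59 CPM to 9.45, 5.68 and 4.89 CPM (log2 fold change 1.62 ± 0.268, adjusted p = 0.000872). Replicate 1 of 48 h was the highest for both. On the opposite strand, Cct6a overlaps 10.4% of the exon bases of Psph and itself had a log2 fold change of 0.49 (adjusted p = 0.00734).

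Phgdh, the dehydrogenase that opens the serine route, had 14, 4 and 4 counts at 0 h and 30, 11 and 19 counts at 48 h. The groups overlapped and the change was not called (log2 fold change 1.27 ± 0.574, edgeR adjusted p = 0.103). It was called higher without 0 h replicate 1 (log2 fold change 2.17, adjusted p = 0.0212) and when genes with fewer counts were kept in the test (adjusted p = 0.0486). At these counts the precision is low.

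Of these 5 folate enzymes, the 2 called higher are mitochondrial and the 2 called lower cytosolic; among the neighbouring folate-linked genes, mitochondrial Gldc was lower (edgeR adjusted p = 0.00243) and cytosolic Mtr higher (0.00372). Mitochondrial Mthfd1l, which releases formate to the cytosol, rose most: it was at 0.545, 0.806 and 0.603 CPM at 0 h and 3.80, 5.43 and 4.49 CPM at 48 h. That is 6.99-fold without overlap (log2 fold change 2.80 ± 0.249, edgeR adjusted p = 1.41e-05). Mitochondrial Mthfd2, the bifunctional dehydrogenase and cyclohydrolase known from dividing and embryonic cells, went from 1.33, 0.935 and 0.603 CPM to 4.73, 4.06 and 4.75 CPM (log2 fold change 2.24 ± 0.27, adjusted p = 0.000111). Mitochondrial Shmt2, which takes the carbon unit from serine, was at 299, 206 and 315 CPM and then at 289, 350 and 269 CPM and was not called (adjusted p = 0.532). It was the most abundant of all 42 genes per kilobase at both times, at 87.8 and 97.4 CPM per kilobase.

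The cytosolic folate enzymes were lower, with weak calls. Shmt1, the cytosolic serine hydroxymethyltransferase, was at 106, 82.1 and 109 CPM at 0 h and 71.3, 86.2 and 62.2 CPM at 48 h. The groups overlapped through 0 h replicate 2 and 48 h replicate 2 (log2 fold change -0.44 ± 0.151, edgeR adjusted p = 0.0393). Mthfd1, the trifunctional cytosolic enzyme, was at 217, 178 and 223 CPM and then at 157, 176 and 147 CPM (log2 fold change -0.36 ± 0.13, adjusted p = 0.0463). Without 0 h replicate 1 the adjusted p in edgeR was 0.111 for Shmt1 and 0.125 for Mthfd1, without 0 h replicate 3 it was 0.121 and 0.139, without 48 h replicate 1 it was 0.0889 and 0.0941, and without 48 h replicate 3 it was 0.127 and 0.136. Without 48 h replicate 2, Mthfd1 alone lost its call (0.0515). Scaling by library size alone ended both calls (adjusted p = 0.233 and 0.358). Of the 5 folate genes, 2 were thus called higher, both by at least 2-fold, and 2 lower. Each is 40% of the group, against 21.4% higher and 19.3% lower of all genes tested. The median log2 fold change was 0.15, and the sums overlapped, at 468 to 648 and 487 to 622 CPM.

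The ratio of the members of 7 pairs, 6 of enzymes for the same reaction and 1 of mitochondrial folate enzymes, Mthfd2 and Mthfd1l, was taken within each library, per kilobase of exon, which does not depend on the scaling between libraries. With 3 libraries against 3, a two-sided exact permutation test cannot go below p = 0.1, so no pair could pass 0.05. The ratio of Rrm2 to Rrm2b was 3.30, 4.21 and 4.79 at 0 h and 158, 219.9 and 129.8 at 48 h, a difference of 5.35 in log2 ratio, from 2.02 ± 0.274 to 7.37 ± 0.385 (SD, n = 3; exact permutation p = 0.1, 0.175 after adjustment over the 7 pairs). Per kilobase, Ctps was below Ctps2 in all libraries of 0 h and above it in all of 48 h: its ratio to Ctps2 was 0.658, 0.287 and 0.438 and then 1.25, 1.12 and 1.55. That order at 48 h rests on the exon lengths used, since by counts Ctps was above Ctps2 in 1 of the 3 libraries (394 against 361), while the change of the ratio does not depend on them. The log2 ratio went from -1.20 ± 0.597 to 0.37 ± 0.24 (SD, n = 3; exact permutation p = 0.1, adjusted 0.175).

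The ratio of Shmt1 to Shmt2 was 0.285, 0.319 and 0.278 at 0 h and 0.197, 0.197 and 0.185 at 48 h, so that the cytosolic form was further below the mitochondrial form in all libraries of 48 h than in any of 0 h (difference of -0.61 in log2 ratio, exact permutation p = 0.1, adjusted 0.175). The ratio of Prps1 to Prps2 did not overlap between the groups either, but moved less, by -0.23 (exact permutation p = 0.1, adjusted 0.175). The other 3 pairs overlapped between the groups: the difference in log2 ratio was -0.37 for Impdh1 to Impdh2 (exact permutation p = 0.3, adjusted 0.42), 0.50 for Nme1 to Nme2 (p = 0.4, adjusted 0.467) and -0.51 for Mthfd2 to Mthfd1l (p = 0.5, adjusted 0.5). These differences depended on single libraries. Impdh1 to Impdh2 gave -0.66 without 0 h replicate 1 and -0.11 without 0 h replicate 2, Nme1 to Nme2 gave 0.14 without 0 h replicate 2 and 0.30 without 48 h replicate 1, and Mthfd2 to Mthfd1l gave -0.12 without 0 h replicate 1 and -0.30 without 48 h replicate 2. Prps1 to Prps2 gave -0.14 without 0 h replicate 1.

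**Figure D3:**
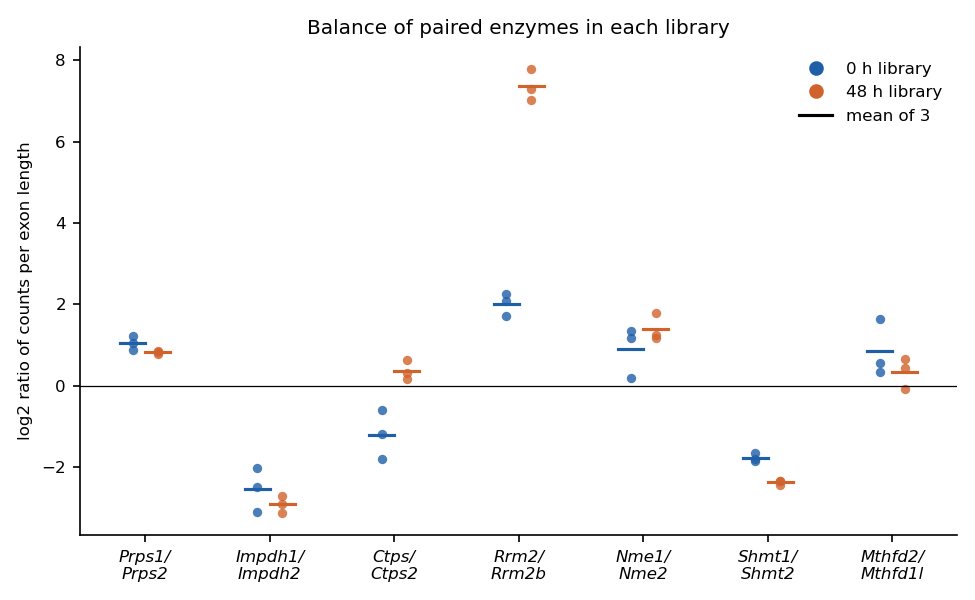
The log2 ratio of the paired enzymes per kilobase of exon in each library, for 7 pairs, with a point per library and a bar at the mean of each time point. Rrm2 to Rrm2b moved from a mean of 2.02 to 7.37 and Ctps to Ctps2 from -1.20 to 0.37, while Impdh1 to Impdh2, Nme1 to Nme2 and Mthfd2 to Mthfd1l overlapped.

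The neighbouring routes were taken as 77 genes of salvage, breakdown, folate handling, the methionine cycle and partners of the pentose phosphate and PRPP steps, and more of them were called lower than higher, except with scaling by library size alone, which called 21 higher and 13 lower. Of these, 72 could be tested (not Dctd, Nme3, Tktl1, Tktl2 and Aldh1l2), and 13 were higher (18.1%, against 21.4% of all genes tested), 20 lower (27.8% against 19.3%) and 39 not called, with a median log2 fold change of -0.14. Pyrimidine breakdown had 5 of 6 genes lower and 0 higher, with a median of -0.79. Dpys, the dihydropyrimidinase that opens the ring, fell from 149 ± 19.7 to 57.5 ± 11.3 CPM (SD, n = 3; log2 fold change -1.38, edgeR adjusted p = 9.87e-05). Tymp, thymidine phosphorylase, which splits thymidine, stood at 38.5 ± 3.73 and then at 8.29 ± 0.822 CPM (SD, n = 3; log2 fold change -2.21, edgeR adjusted p = 5.2e-07), so that Tymp fell where Tyms rose. Sco2 shares 42% of the exon bases of Tymp on the same strand and Ncaph2 26.3% on the opposite strand, so the level of Tymp is uncertain. Purine breakdown had 1 of 5 genes higher and 1 lower. Uox, the urate oxidase, which mice have and humans lack, fell from 776 ± 133 to 327 ± 28.6 CPM (edgeR adjusted p = 0.000145), and Gda, guanine deaminase, rose by 0.70 on the log2 scale (adjusted p = 0.00223).

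In purine salvage and interconversion, 6 of 19 genes were higher (31.6%, against 21.4% of all genes tested) and 2 lower (10.5% against 19.3%). The largest called changes were of genes with few counts at 0 h: Ak1, an adenylate kinase, had 2, 2 and 2 counts and then 12, 15 and 11, a ratio of 6.53 per assigned read (95% exact counting interval 2.74 to 18.9, edgeR adjusted p = 0.00213). Pnp2, a purine nucleoside phosphorylase, had 9, 4 and 2 counts and then 39, 25 and 28, a ratio of 6.32 (3.64 to 11.8, adjusted p = 0.00262). In pyrimidine salvage and interconversion, 3 of 10 tested genes were higher and 3 lower, 30% each, against the same shares of all genes. Cmpk2, the mitochondrial UMP-CMP kinase, had a log2 fold change of -1.33 (edgeR adjusted p = 0.00151), and Nme6, a further nucleoside diphosphate kinase, rose by 0.74 on the log2 scale (adjusted p = 0.00509).

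In folate handling, 6 of 14 tested genes were lower (42.9%, against 19.3% of all genes tested) and 8 not called, with a median of -0.35. Ftcd, which passes a carbon unit from histidine to folate, fell from 448 ± 14.0 to 181 ± 14.4 CPM (SD, n = 3; log2 fold change -1.31, edgeR adjusted p = 1.81e-05). Fpgs, which adds glutamate to folate, fell from 236 ± 33.9 to 107 ± 13.3 CPM (log2 fold change -1.14, adjusted p = 0.000162). In the methionine cycle, 3 of 12 genes were higher (25.0%, against 21.4% of all genes tested) and 2 lower (16.7% against 19.3%). These shares are near those of all genes. Mtrr, which reactivates methionine synthase, rose by 1.19 on the log2 scale (edgeR adjusted p = 0.000151), and Gnmt, the abundant liver glycine methyltransferase, fell from 1068 ± 200.2 to 640 ± 165 CPM (adjusted p = 0.0187). Among partners of the pentose phosphate and PRPP steps, 0 of 6 tested genes were higher. Lower was 1 (16.7%, against 19.3% of all genes tested), Rbks, the ribokinase (log2 fold change -0.60, edgeR adjusted p = 0.0118).

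**Figure D4:**
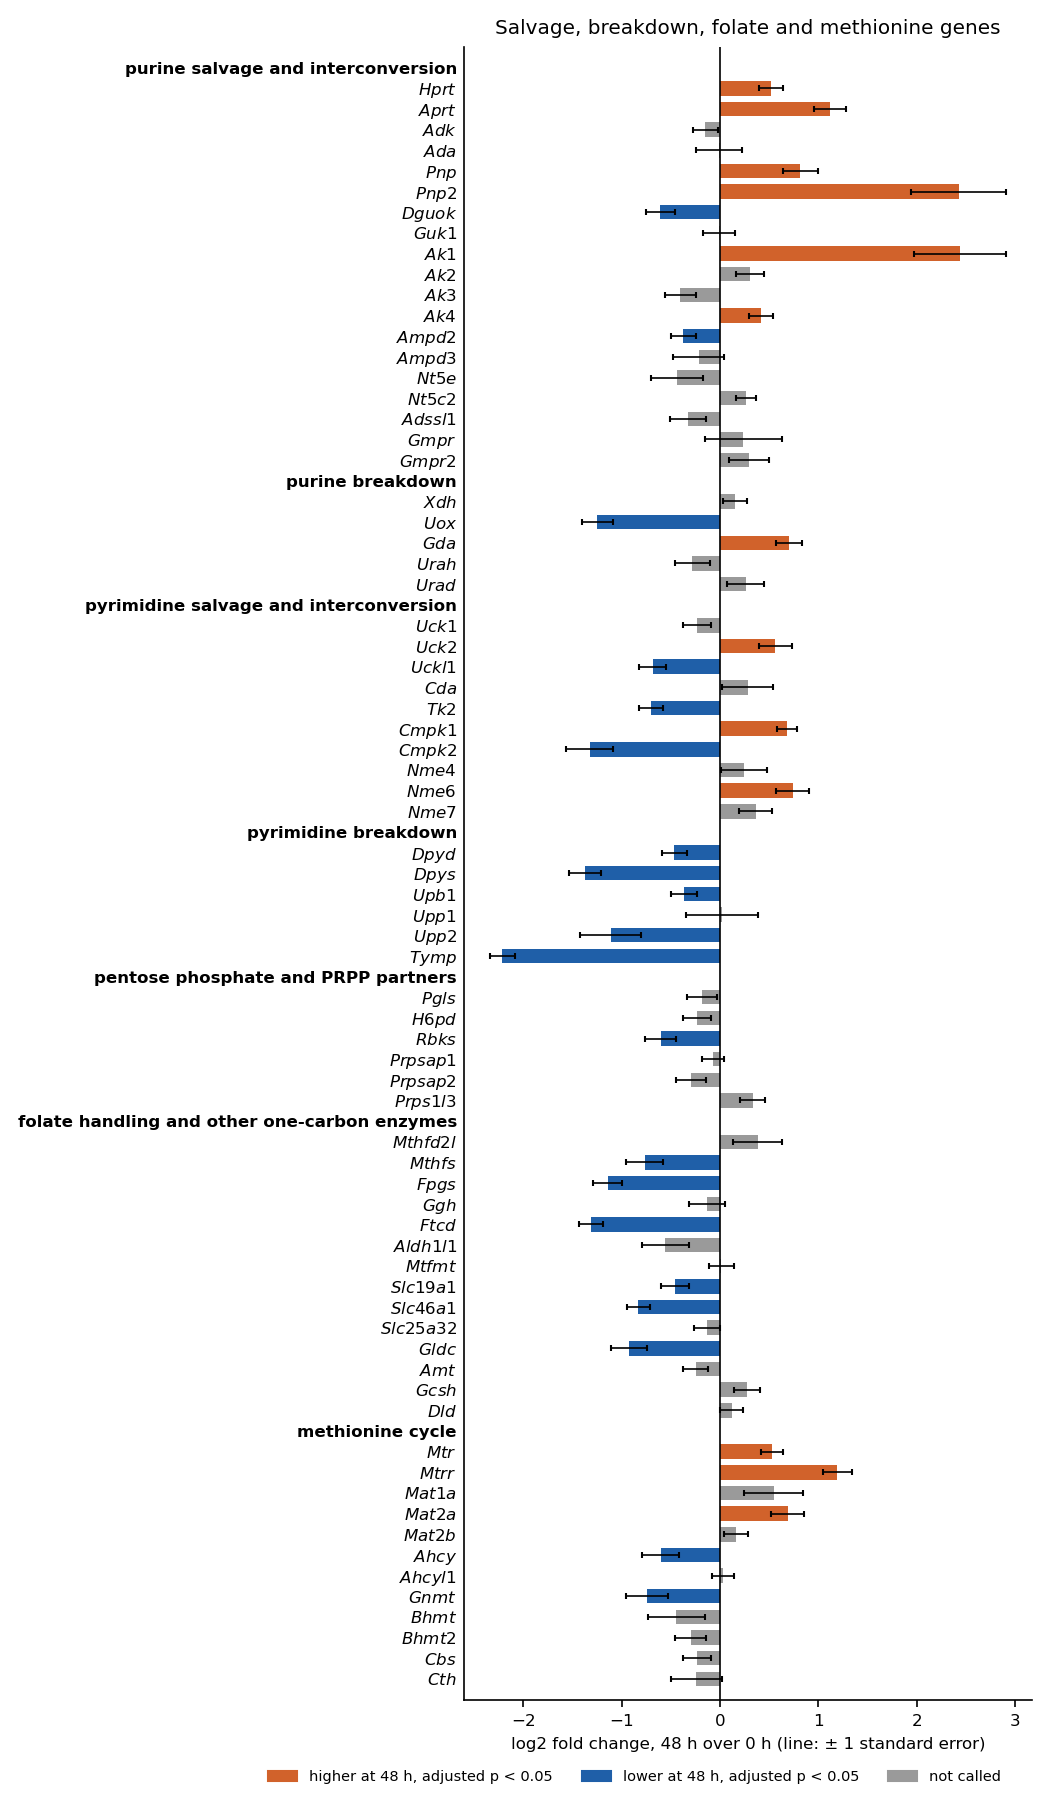
The log2 fold change of each tested gene of the neighbouring routes, 48 h over 0 h, from edgeR, as a bar with its standard error as a line, coloured by call and ordered by route. Of the 72 genes, 13 were higher, among them Mtrr (1.19), and 20 lower, among them Tymp (-2.21), Dpys (-1.38) and Uox (-1.25).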

How the data were processed

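The authors deposited whole-number read counts per gene for each of the 6 libraries, made per the submitters' processing notes with FastQC 0.11.5, Trim Galore 0.6.4, STAR 2.6, HTSeq 0.12.4 and DESeq2 on mm10; the counting mode and the strand setting are not given in the sources used here. Rows that name no gene were left out: reads on no feature came to 24.3 to 32.7% and ambiguous reads to 4.27 to 5.29% of each library's gene counts and these rows. All 55450 gene identifiers matched GENCODE M21 (GRCm38), which gave names and coordinates. A gene was tested, 48 h against 0 h, if 3 or more libraries held 10 or more of its counts, with edgeR 4.0.16 (quasi-likelihood test, TMM scaling, Benjamini-Hochberg adjusted p under 0.05) in R 4.3.3. DESeq2 1.42.0 and limma 3.58.1 (voom) served as alternatives among 15 tried. No pair of libraries agreed within sampling noise (lowest mean chi-square per gene within a group 25.8).

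Named with values in each library were the 2 called genes with the largest change in each role group, genes called against most of their group, and the paired enzymes. Tyms, Tk1 and Phgdh were added to these after their values were seen. Mthfd1, in a group with as many genes called higher as lower, was also given and fits none of these classes. From each neighbouring route, the 2 called genes with the largest change were named, and further genes where the text says so or sets them beside a result. Some genes of the neighbouring routes are not reported here. No rule for the 42 genes or the lists used measured values, but both were drawn up with earlier results of these data known. A count of 3, taken as the floor, runs from 0.0840 CPM in 48 h replicate 2 to 0.102 CPM in 0 h replicate 1. Every count of the 42 genes (4 to 12499) lay above 3. Floors and counting intervals cover counting error only.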

Additional observations from a re-analysis of the deposited data

How the results depend on the processing

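No call of the 30 changed genes among the 42 turned its direction under any of the 15 alternatives. Scaling by DESeq2's size factors, TMM factors from protein-coding genes, edgeR's own filter, DESeq2 and limma-voom each kept all 30 calls, as did testing genes of lower counts. Scaling by library size alone moved the median log2 fold change of all genes by 0.20 and the share of higher among all calls from 52.5% to 71.6%, kept 26 of the 30 calls, and changed the count of lower genes among the 42 from 4 to 0, of lower genes overall from 3288 to 2108, of higher genes of the neighbouring routes from 13 to 21 and of their lower genes from 20 to 13. Upper quartile scaling gave a share of 44.5% and kept 28 calls, without Prps1 and Ppat. Leaving out each library in turn kept 25 to 29 calls, with 23 to 26 of the 42 higher and 2 to 4 lower; the count of lower genes was 2 without 0 h replicate 1, 0 h replicate 3, 48 h replicate 1 or 48 h replicate 3. Equal replicate numbers did not pair the libraries (correlations of their deviations 0.0335, -0.0674 and -0.138); a fit with the replicate block kept 27 of the 30 calls, without Prps1 (adjusted p = 0.0584 in edgeR), Shmt1 (0.0751) and Mthfd1 (0.0987), with 2 lower genes, and added Phgdh (adjusted p = 0.0412 in edgeR). The count of genes higher by at least 2-fold, 13, was 11 to 16 over all alternatives; Ctps2 and Adss lie at that limit. Depth limits the low genes Phgdh, Psat1, Ak1 and Pnp2.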
